A study of Mus musculus with 18 samples.

Results

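The 36 genes described here encode aminoacyl-tRNA synthetases of the mouse: 20 genes of the cytosolic set, and 16 genes of the mitochondrial set, whose symbols end in 2. They were picked by gene symbol from the 23052 symbols of each of 2 tables of read counts. All 36 were found in both tables, and all 36 passed the filter on low counts that left 12492 genes in the first table and 12506 in the second.

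Aminoacyl-tRNA synthetases join each amino acid to the transfer RNA whose anticodon reads its codons, which is the step that fixes the genetic code in translation. Nearly all amino acids have a cytosolic enzyme and a separate mitochondrial enzyme, both encoded in the nucleus. The genes Kars and Gars each give the enzyme of both compartments, and glutamine has no mitochondrial synthetase: Ears2 first loads that transfer RNA with glutamate, and the amidotransferase made by Qrsl1, Gatb and Gatc converts it. In cells short of amino acids, the transcription factor ATF4 is known to raise the transcripts of many cytosolic synthetases and few of the mitochondrial ones.

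RNA was taken from bone marrow-derived macrophages of wild type C57BL6/J mice, grown from marrow for 7 days in 20% medium conditioned by L929 cells, a fibroblast line that secretes the macrophage growth factor, and 80% DMEM. The first table held 12 libraries of endotoxin-tolerant macrophages, which is the state of weakened response that follows an earlier exposure to endotoxin, grown in medium with glutamine, in medium lacking it, or in glutamine-free medium with AKG, 4 libraries each. AKG is α-ketoglutarate, named in the title of the study, a metabolite that cells make from glutamine by way of glutamate. The second table held 6 libraries: untreated control cells, cells given IL-4 for 6 h and cells given LPS (endotoxin) for 6 h, 2 libraries each. The study asked which transcripts of tolerant macrophages respond to glutamine metabolism. The labels give no dose, no tolerance schedule and no statement that replicates were separate animals or cultures, so p-values measure only the spread between these libraries, which may be technical.

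The depth of the 12 tolerant libraries was about 28302200 to 37834700 counts, and that of the 6 stimulated or untreated ones 34227400 to 39760400. The summed level of 10 macrophage markers was 27578 to 47821 CPM (counts-per-million, on library totals corrected by TMM, a method that equalises the bulk of genes), with no marker at 0 in any library. Summed lymphocyte markers reached at most 0.545 CPM, erythroid markers 0.123 CPM and mast cell markers 5.12 CPM. In every tolerant group, replicates 1 and 2 stood apart from replicates 3 and 4, a grouping seen in the data and not given by the labels. Tolerant results are therefore also given from a blocked fit, which compares libraries of the same replicate number. Libraries of the same number were no more alike than those of the neighbouring number, with correlations of 0.50 to 0.82 and 0.47 to 0.84. The numbers are thus not shown to mark matched libraries. If replicates 1 and 2, or 3 and 4, are not independent, p-values of the blocked fit may be too small. The tables were fitted separately, with no test between them.

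Per kilobase of exon, the cytosolic genes stood above nearly all mitochondrial ones in each of the 6 groups. Nars, the asparagine enzyme, was the highest member in 4 groups, at 101 ± 10.2 CPM per kb (SD, n = 4) in tolerant cells with glutamine. Rars, the arginine enzyme, led with IL-4, at 84.9 CPM per kb, and with LPS, at 56.8 CPM per kb. The lowest in all 6 groups was Mars2, the mitochondrial methionine enzyme, at 0.157 to 0.421 CPM per kb over an annotated exon length of 11.294 kb. Lars2, the mitochondrial leucine enzyme, was the one mitochondrial gene among the cytosolic levels in every group, at 11.3 to 19.6 CPM per kb. Hars2 and Iars2 of untreated cells, at 8.86 and 7.97 CPM per kb, also lay within the range of the lowest cytosolic genes, Vars at 7.83 and Yars at 7.99 CPM per kb.

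Summed over the 20 cytosolic genes, tolerant libraries 1 to 4 held 1565, 1576, 1953 and 1871 CPM with glutamine. Without glutamine these sums were 1892, 1944, 2285 and 2219 CPM. With AKG they were 1663, 1526, 1958 and 2047 CPM. At each replicate number the library without glutamine was the higher of the pair, by 1.17 to 1.23 times, while the groups overlapped because replicates 3 and 4 were higher than 1 and 2 in each of them. The 15 mitochondrial genes other than Lars2 summed to 225 to 233 CPM with glutamine and 226 to 236 CPM without it, which overlapped. With AKG they summed to 217 to 220.3 CPM, the lowest of the 3 groups. This order did not hold with Lars2 included, where AKG libraries 1 to 4 held 369, 294, 246 and 253 CPM. Group means of all 16 genes were 273 CPM with glutamine, 279 CPM without it and 290 CPM with AKG. In the stimulation set the cytosolic sums were 1408 and 1426 CPM untreated, 1589 and 1620 CPM with IL-4, and 1495 and 1449 CPM with LPS. The mitochondrial sums without Lars2 were 205 and 215 CPM untreated, 219 and 229 CPM with IL-4, and 146 and 154 CPM with LPS. Both LPS libraries were thus below all other libraries in the mitochondrial sums without Lars2, and the cytosolic sums showed no such gap on this scaling. With Lars2 included, the LPS sums of 211 and 242 CPM were still the lowest, but close to the 246 CPM of AKG library 3. The ratio of the LPS mean to the untreated mean was 0.71 without Lars2 and 0.83 with it. As a share of library totals without TMM, the cytosolic genes of the LPS libraries were also lowest, at 0.118% and 0.119% of counts against 0.146% to 0.230% in the 16 others.

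**Figure D1:**
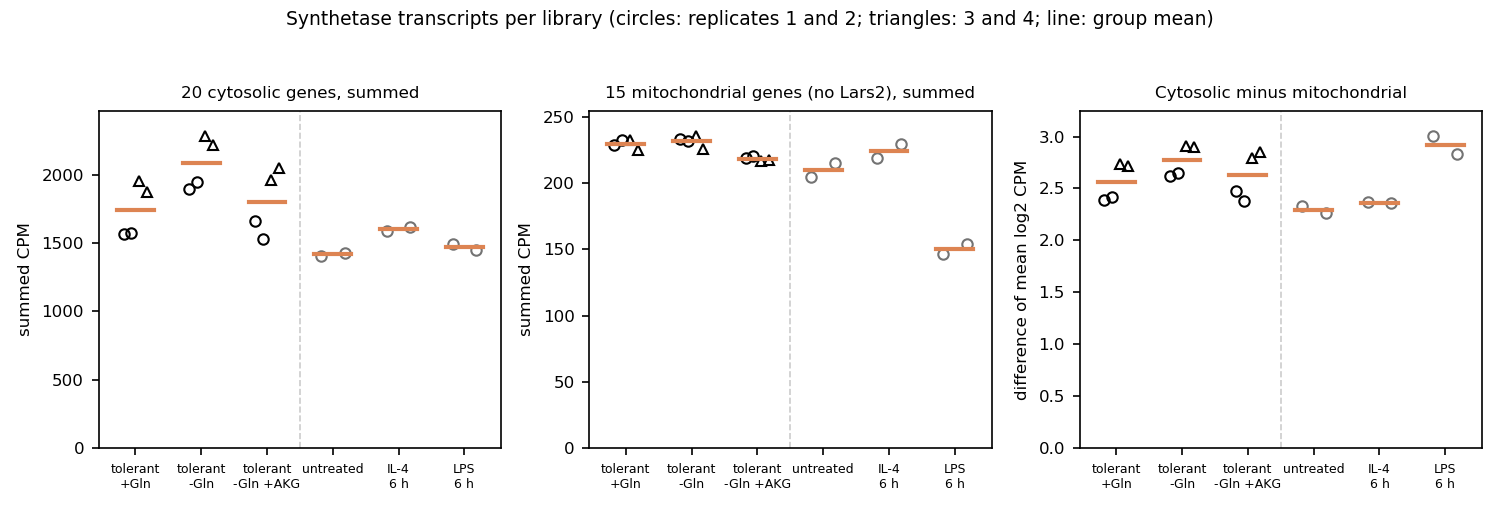
Each point is one library of the 6 groups on the x axis. The y axes are the summed CPM of the 20 cytosolic genes (left), the summed CPM of 15 mitochondrial genes without Lars2 (middle), and the mean log2 CPM of the cytosolic genes minus that of all 16 mitochondrial genes (right); lines are group means. The LPS libraries sit at 146 and 154 CPM in the middle panel, below the 16 others, and at 3.01 and 2.84 log2 units in the right panel.

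The distance between the sets was measured in each library as the mean log2 CPM of the cytosolic genes minus that of the mitochondrial genes, in which a scaling shared by all genes cancels. It averaged 2.56 ± 0.19 log2 units (SD, n = 4) with glutamine, 2.77 ± 0.15 without glutamine and 2.63 ± 0.23 with AKG. In the 4 pairs of libraries with the same number it was wider without glutamine than with it, by 0.23, 0.23, 0.17 and 0.19 log2 units. AKG libraries were narrower than those without AKG at the same number, with differences of -0.15, -0.27, -0.11 and -0.05; the difference of the group means, -0.14, became -0.063 without AKG replicate 2 and -0.22 without AKG replicate 4. It was 2.33 and 2.26 untreated, 2.37 and 2.36 with IL-4, and 3.01 and 2.84 with LPS. These are descriptions over chosen genes and carry no p-value, and the tolerant groups overlapped in all 3 pairings.

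Glutamine withdrawal in tolerant macrophages was compared first. Cytosolic synthetase genes Aars, Sars and Yars rose without glutamine, by 1.69, 1.49 and 1.45 times in mean CPM, and no mitochondrial gene passed without the block. edgeR's quasi-likelihood test called 3 of 20 cytosolic genes higher and 0 lower at a Benjamini-Hochberg adjusted p under 0.05, where 2.3% of all tested genes were called higher, 2.4% lower and 4.7% in either direction. With the replicate block, 11 cytosolic genes were called higher and 0 lower, where 8.68% of all genes were higher, 13% lower and 21.7% were called. The median log2 fold change was 0.19 over the cytosolic genes, 0.03 over the mitochondrial genes and -0.01 over all tested genes. The cytosolic median was 0.22 within replicates 1 and 2 and 0.15 within 3 and 4.

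Aars (chr8:111033144-111057664, plus strand, GRCm38) encodes the alanine enzyme. Its 4 libraries with glutamine held 128, 131, 171 and 157 CPM. Those without glutamine held 198, 216, 308 and 273 CPM. The AKG libraries held 144, 117, 191 and 200.1 CPM. Every library without glutamine was above every library with it, and the lowest of them was below the highest AKG library. The log2 fold change was 0.76 (SE 0.19, adjusted p = 0.049 by edgeR; 0.00031 with the block). Of the 50-base stretches in Aars exons, 20.1% also lie in Exosc6, which overlaps it on the same strand and was not analysed here.

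Sars (chr3:108424865-108445209, minus strand), the serine enzyme, held 82.7, 90.4, 106 and 102 CPM with glutamine. Without glutamine it held 133, 148, 153 and 136 CPM. With AKG it held 109, 91.4, 112 and 117 CPM. The libraries without glutamine were above all others of both groups. Its log2 fold change was 0.58 (SE 0.10, adjusted p = 0.011 by edgeR), and it was still called with any one library left out (largest adjusted p = 0.039).

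Yars (chr4:129189760-129219607, plus strand), the tyrosine enzyme, held 29.1, 28.3, 35.1 and 34.2 CPM with glutamine. Without glutamine it held 41.7, 45.6, 50.5 and 46.5 CPM. AKG libraries held 34.6, 26.2, 34.0 and 41.0 CPM. Here too the groups with and without glutamine did not overlap, and the AKG libraries were below those without AKG. Yars rose by 0.54 (SE 0.13, adjusted p = 0.037 by edgeR). Aars was no longer called without any one of 7 of the 8 libraries (adjusted p up to 0.12; it was kept without replicate 1 of the group without glutamine). It also missed the threshold with RLE factors, library totals alone, no filter, a filter of 1 CPM, limma-voom and the 2 groups alone (adjusted p from 0.0501 to 0.070). Yars was lost without replicates 2, 3 or 4 of that group or replicates 1, 2 or 4 of the glutamine group (adjusted p up to 0.096). Over all 20 alternative fits the Yars call was lost in 7.

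Further cytosolic genes passed with the block only. Cars, the cysteine enzyme, averaged 50.8 ± 4.92 CPM with glutamine and 70.1 ± 5.17 CPM without it (SD, n = 4), with no overlap between the libraries (log2 fold change 0.47, SE 0.12, edgeR adjusted p = 0.0502; 0.0017 with the block). Eprs, whose single protein loads both glutamate and proline, held 125, 125, 198 and 192 CPM with glutamine and 194, 208, 217 and 299 CPM without it. The 2 Eprs ranges overlapped, while each library without glutamine exceeded the one of the same number (log2 fold change 0.52, adjusted p = 0.30; 0.55 and 0.012 with the block). Mars, the methionine enzyme, had 0.37 (adjusted p = 0.0079 with the block). Wars, the tryptophan enzyme, had 0.28 (0.017) and its 4 libraries without glutamine, at 54.0 to 64.6 CPM, were above the 42.7 to 51.6 CPM with it. The other 4 were Farsb at 0.28 (0.022), Gars at 0.29 (0.032), Lars at 0.16 (0.039) and Rars at 0.19 (0.021), each the log2 fold change and adjusted p with the block. These edgeR values without the block did not pass, with adjusted p from 0.077 to 0.63 over the 7 genes other than Cars.

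The remaining 9 cytosolic genes were not called in either fit: Dars, Farsa, Hars, Iars, Kars, Nars, Qars, Tars and Vars, for aspartate, phenylalanine, histidine, isoleucine, lysine, asparagine, glutamine, threonine and valine. Qars, the enzyme that uses glutamine itself, averaged 137 ± 11.6 CPM with glutamine and 140.0 ± 15.8 CPM without it (log2 fold change 0.03, SE 0.10). Nars averaged 297 ± 29.9 and 302 ± 37.7 CPM (0.03, SE 0.13). Iars was closest to the threshold with the block, at 0.19 (adjusted p = 0.058). The 2 subunits of the phenylalanine enzyme went apart: Farsb passed with the block, and Farsa had -0.11 (adjusted p = 0.20 with the block). By function, 0 of the 8 enzymes of the multisynthetase complex were called without the block (Dars, Eprs, Iars, Kars, Lars, Mars, Qars and Rars) and 4 with it, against 3 and 7 of the 12 free cytosolic genes. By structural class, 1 of 9 class I genes and 2 of 10 class II genes were called (6 and 4 with the block), Eprs holding an enzyme of each class. Of all tested genes, 4.7% were called without the block and 21.7% with it. With 8 genes, 0 calls cannot be told apart from 4.7%. The 2 differences of these counts were not tested.

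Promoters were read for the ATF response element, since the cytosolic genes above include known ATF4 targets. The RefSeq promoter table (GRCm38.p6, 250 bases before to 50 after each gene's start) matched 13 cytosolic and 14 mitochondrial genes, and not Cars, Hars, Lars, Nars, Rars, Vars, Wars, Hars2 or Pars2. The motif TGATGNAA, searched on both strands, lay in 5 of the 13 cytosolic promoters (38.5%), in 0 of the 14 mitochondrial ones and in 1304 of all 32851 promoters (3.97%). One match in each of the 5 promoters is given in 30 bases, 5′ to 3′ on the gene's own strand, with the match in capitals, because matches lay in cytosolic promoters and in none of the mitochondrial ones searched. Yars carries the motif forward and the others carry its reverse complement; positions count from the RefSeq start behind that table, which for Aars, Iars, Tars and Yars lies inside the GENCODE span of the gene, so that the Aars and Yars spans given above begin further upstream.
Aars, 9 bases after the start, chr8:111033840-111033869, plus strand: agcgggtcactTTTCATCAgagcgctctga
Gars, 30 bases before the start, chr6:55037960-55037989, plus strand: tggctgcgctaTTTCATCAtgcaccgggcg
Iars, 7 bases after the start, chr13:49682126-49682155, plus strand: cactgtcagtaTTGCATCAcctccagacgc
Tars, 15 bases before the start, chr15:11399655-11399684, minus strand: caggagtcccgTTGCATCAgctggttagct
Yars, 3 bases after the start, chr4:129189895-129189924, plus strand: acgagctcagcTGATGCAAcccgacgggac
A match is a description of these letters and not a binding site, and its part in the changes was not tested. The motif was picked because some of the cytosolic genes are known ATF4 targets, so matches among them could be foreseen. With 14 mitochondrial promoters, 0 matches cannot be told apart from the 3.97% of all promoters. Of the 5 genes with a match, Aars and Yars were called without glutamine, Gars with the block, and Iars and Tars in neither fit, and their median log2 fold change was 0.27 (range 0.05 to 0.76). Among the 8 cytosolic genes with a promoter and no match, Sars was called, 4 were called higher with the block (Sars, Eprs, Farsb and Mars), and the median was 0.15 (range -0.11 to 0.58).

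In the mitochondrial set, edgeR called 0 of 16 genes on glutamine withdrawal, with 1 of them at an unadjusted p under 0.05 (17.9% of all genes were), and DESeq2 and limma-voom also called 0. With the block, Ears2, the mitochondrial glutamate enzyme, rose by 0.31 (adjusted p = 0.037). Ears2 held 4.27, 3.46, 5.83 and 5.49 CPM with glutamine and 4.69, 4.97, 7.42 and 6.46 CPM without it, so that each library exceeded the one of its number while the groups overlapped. Mars2 had the largest log2 fold change of the set, 0.33 (SE 0.12, edgeR adjusted p = 0.15; 0.060 with the block). Its libraries held 4.08, 3.71, 3.46 and 3.84 CPM with glutamine and 4.62, 5.06, 4.38 and 4.96 CPM without it, with no overlap. Sars2, the mitochondrial serine enzyme, went the other way, from 8.04 to 8.70 CPM with glutamine to 5.71 to 7.79 CPM without it, again with no overlap (-0.23, adjusted p = 0.31; 0.098 with the block). In all, 5 cytosolic genes and 1 mitochondrial gene were higher with no overlap between the groups, where 6.57% of all genes were, and 1 mitochondrial gene was lower, where 5.78% were.

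For 17 pairs of a cytosolic and a mitochondrial gene that serve the same amino acid, the log2 fold change of the cytosolic gene was the higher in 15, with a median difference of 0.12. The pairs share libraries, so this count is a description. Alanine gave the widest gap: Aars exceeded Aars2 by 0.86 log2 units, and Aars2 itself had -0.10 (SE 0.20). Serine followed at 0.81 and cysteine at 0.67. The 2 pairs that went the other way were Farsa with Fars2, at -0.16, and Nars with Nars2.

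**Figure D2:**
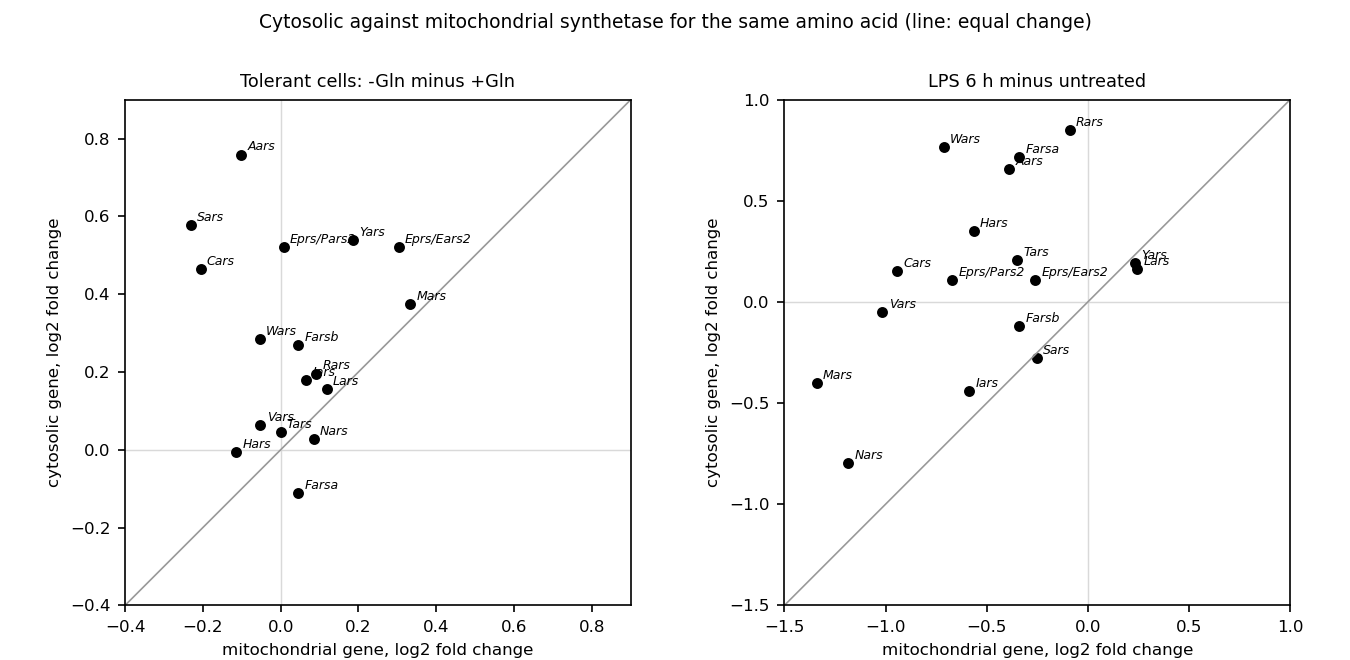
Each point is a cytosolic gene (named) and the mitochondrial gene for the same amino acid, with the log2 fold change of the mitochondrial gene on the x axis and of the cytosolic gene on the y axis, without against with glutamine in tolerant cells (left) and LPS against untreated cells (right). Points above the diagonal, 15 of 17 on the left and 14 of 17 on the right, have the higher change in the cytosolic gene; Eprs and Fars2 each enter 2 pairs.

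Other genes of the same machinery were read from lists. None of the scaffold genes of the multisynthetase complex passed in either fit (Aimp1 0.16, Aimp2 -0.01 and Eef1e1 0.24, edgeR adjusted p of at least 0.20). The second threonine gene Tarsl2 (-0.01) and the 4 genes of mitochondrial glutamine transamidation and formylation (-0.19 to 0.14) also did not pass in either fit. Cytosolic elongation factors gave 0 of 6 in both fits, and mitochondrial translation factors 0 of 8 (2 higher with the block). Of 20 genes of the amino acid stress response, 3 rose (11 rose and 2 fell with the block), with a median log2 fold change of 0.51. Atf4 transcripts held 143, 154, 231 and 199.7 CPM with glutamine and 230.4, 241, 337 and 307 CPM without it (log2 fold change 0.62, adjusted p = 0.12; 0.00046 with the block). Trib3, a pseudokinase induced in this response, rose from 4.32 to 28.7 CPM (2.73, adjusted p = 0.0061). Asns, the asparagine synthetase gene that answers to ATF4, averaged 25.9 CPM with and 59.5 CPM without glutamine (1.20, adjusted p = 0.16; 0.0098 with the block). Mars overlaps Ddit3, a gene of this response that rose by 1.12, on the opposite strand. The overlap is confined to their 3′ ends (Mars chr10:127296221-127311786, minus strand, and Ddit3 chr10:127290774-127296288, plus strand). Whether the counting used strand was not given in the sources used here, and the part of the overlap in the Mars values was not tested.

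Other markers moved with the same comparison. Summed over 8 stromal fibroblast markers, the libraries held 423 to 2211 CPM with glutamine, 49.99 to 213 CPM without it and 112 to 413 CPM with AKG, with no marker at 0, and 6 of 8 fell without glutamine (8 with the block). Summed over 8 proliferation genes they held 94.6 to 187, 50.8 to 70.9 and 60.2 to 71.0 CPM, and 5 of 8 fell (6 with the block). The part of these differences in the synthetase result was not tested. In bulk RNA, fewer cells of a type and less RNA per cell cannot be told apart.

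AKG given in place of glutamine was compared with cells that had neither. No synthetase gene passed in edgeR's fit: 0 of 20 cytosolic and 0 of 16 mitochondrial genes, with 6 members at an unadjusted p under 0.05 (13% of all genes were), where 1.49% of all genes were called, 0.64% higher and 0.849% lower. DESeq2 called 4 cytosolic genes and 1 mitochondrial gene lower, and limma-voom 0, with no share of all genes taken for either. With the replicate block, 9 cytosolic and 3 mitochondrial genes were lower with AKG and 0 higher, where 7.03% of all genes were lower, 8.32% higher and 15.3% were called. The median log2 fold change was -0.14 over the cytosolic, -0.07 over the mitochondrial and 0.01 over all tested genes. This comparison and the previous one share the libraries without glutamine and without AKG, so values of each are given side by side and no agreement between them is counted.

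Sars had the smallest p of the members, at -0.41 (SE 0.10, edgeR adjusted p = 0.078; 0.010 with the block), and its 4 AKG libraries lay below all 4 without AKG. Mars averaged 44.7 ± 4.09 CPM with AKG and 59.7 ± 7.57 CPM without it (SD, n = 4; -0.42, SE 0.11, adjusted p = 0.088; 0.0075 with the block), also with no overlap. Cars and Yars did not overlap either, at -0.40 and -0.44 (adjusted p = 0.0059 and 0.012 with the block). These 4 cytosolic genes and Mars2 were lower with no overlap, where 5.08% of all genes were. Aars had the largest change of the cytosolic genes, -0.61 (adjusted p = 0.17; 0.0019 with the block), with overlapping ranges of 117 to 200.1 CPM and 198 to 308 CPM. Eprs at -0.50, Farsb at -0.28, Gars at -0.34 and Rars at -0.18 passed with the block (values and adjusted p, 0.023 to 0.041, from that fit). Wars and Lars did not pass, at -0.11 and -0.09 (adjusted p = 0.34 and 0.25 with the block).

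In the mitochondrial set Mars2 held 2.99, 3.47, 3.76 and 3.77 CPM with AKG, all below the 4.38 to 5.06 CPM without it (-0.44, SE 0.12, adjusted p = 0.10; 0.027 with the block). Iars2 and Yars2, the isoleucine and tyrosine enzymes, had -0.18 and -0.26 with the block (adjusted p = 0.025 and 0.045). Lars2 had the largest value of the set, 0.60, and the largest error, SE 0.48 (adjusted p = 0.69). Its AKG libraries held 149.98, 73.2, 29.1 and 35.7 CPM, so that 1 library was far above the rest, while those without AKG held 62.7, 53.8, 38.5 and 35.3 CPM. Lars2 was higher in replicates 1 and 2 than in 3 and 4 in all 3 tolerant groups. In the amino acid pairs the cytosolic change was the higher in 3 of 17, with a median difference of -0.15. Scaffold and amidotransferase genes gave 0 calls without the block and, with it, Eef1e1 lower at -0.42 (adjusted p = 0.013). Of the 20 stress response genes 0 passed without the block (1 higher and 8 lower with it), Atf4 at -0.38 and Asns at -0.82 among those lower with it. Fibroblast markers gave 0 calls without the block and 7 of 8 higher with it, and their part in the synthetase values was not tested.

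Cells with AKG were also set against cells with glutamine. No gene of any kind was called by edgeR (0 of 12492, which is 0% of genes, with 916, or 7.33%, at an unadjusted p under 0.05 and 0 of these among the members), DESeq2 and limma-voom called no member, and the block called 7.01% of all genes, 1.63% higher and 5.38% lower. With the block, Aars2, the mitochondrial alanine enzyme, was lower with AKG (-0.37, adjusted p = 0.032), at 10.2, 10.2, 7.66 and 8.15 CPM against 12.8, 14.4, 10.9 and 8.92 CPM with glutamine. Each AKG library was below that of the same number and the groups overlapped. Lars2 had the largest value, 0.72, with the AKG library at 149.98 CPM above all others (SE 0.48, adjusted p = 0.97). No cytosolic gene passed in either fit, the values running from -0.06 to 0.17, with a median of 0.03. Sars and Wars had the largest of these, 0.17 each (SE 0.10 and 0.08). For Aars the difference of 0.15 had an SE of 0.19, and for Yars 0.10 had an SE of 0.13. These comparisons do not show that the groups were alike. Of the 4 genes of glutamine transamidation and formylation, Qrsl1 was lower with AKG with the block (-0.33, adjusted p = 0.039). Fibroblast markers gave 8 of 8 and proliferation genes 5 of 8 lower with the block, and their part in these values was not tested.

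**Figure D3:**
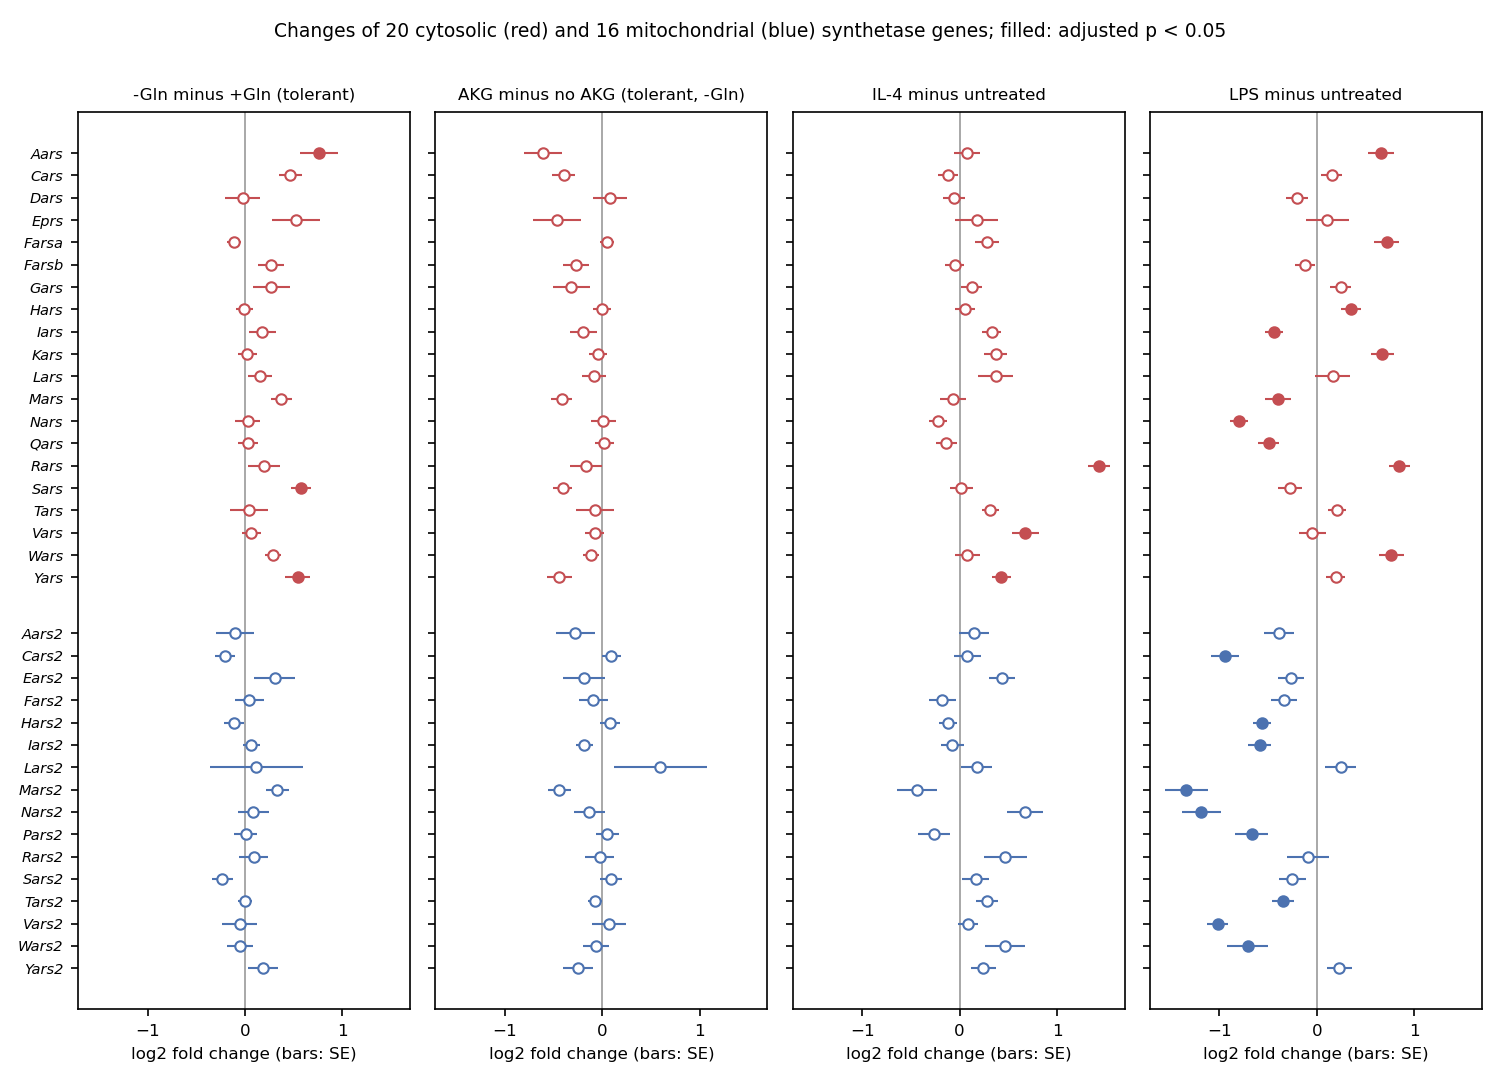
Log2 fold changes (x axis) of the 20 cytosolic genes in red and the 16 mitochondrial genes in blue, with bars of 1 SE, in 4 comparisons; filled points passed an edgeR adjusted p under 0.05 without the block. On glutamine withdrawal Aars, Sars and Yars are filled, with AKG none, with IL-4 Rars, Vars and Yars, and with LPS 10 cytosolic genes in both directions and 9 mitochondrial genes, all lower.

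IL-4, the cytokine of alternative macrophage activation, raised Rars 2.69 times, Vars 1.60 times and Yars 1.34 times in mean CPM. edgeR called 3 of 20 cytosolic genes higher (Rars, Vars and Yars) and 0 lower, where 9.66% of all genes were higher, 10.5% lower and 20.1% were called. It called 0 of 16 mitochondrial genes, with 3 of them at an unadjusted p under 0.05 (32.7% of all genes were), while DESeq2 and limma-voom called 1. The median log2 fold change was 0.10 over the cytosolic, 0.16 over the mitochondrial and -0.04 over all tested genes. Both IL-4 libraries were above both untreated ones in 9 cytosolic and 10 mitochondrial genes, where 26.5% of all genes were, and below them in 3 and 4, where 31.8% were.

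Rars (chr11:35808381-35834506, minus strand) encodes the arginine enzyme of the multisynthetase complex. It held 61.9 and 71.2 CPM untreated and 175 and 183 CPM with IL-4, far apart. The log2 fold change was 1.43 (SE 0.11, edgeR adjusted p = 0.00081), the largest of any member in the 2 comparisons with untreated cells, and it was called without any one of the 4 libraries. Rars2, the mitochondrial arginine enzyme, had 0.47 (SE 0.22, adjusted p = 0.20). Vars (chr17:35000987-35016322, plus strand), the valine enzyme, held 35.0 and 29.8 CPM untreated and 50.7 and 52.6 CPM with IL-4 (0.67, SE 0.14, adjusted p = 0.021). Yars held 23.6 and 22.9 CPM untreated and 30.2 and 32.4 CPM with IL-4 (0.43, SE 0.10, adjusted p = 0.029). The IL-4 libraries of these genes were above the untreated ones with no overlap. Without IL-4 replicate 1 or 2 the call stood for Rars alone (adjusted p from 0.11 to 0.24 for Vars and Yars), and without untreated replicate 2 Yars was lost (0.061).

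Nars2 (chr7:96951505-97064758, plus strand), the mitochondrial asparagine enzyme, held 4.77 and 5.77 CPM untreated and 8.02 and 8.81 CPM with IL-4 (0.67, SE 0.18, adjusted p = 0.051). Wars2 and Rars2 followed at 0.47 each, and Mars2 was the lowest at -0.43 (SE 0.20, adjusted p = 0.21). Without untreated replicate 2, 3 mitochondrial genes were called, Nars2 at an adjusted p of 0.031. Gatc, a subunit of the mitochondrial glutamyl-tRNA amidotransferase, rose from 39.4 to 79.9 CPM (1.02, SE 0.19, adjusted p = 0.014), and its partners Gatb and Qrsl1 had 0.10 and 0.08. The stress response genes gave 6 of 20 higher, and Atf4, Asns and Trib3 were not among them (0.18, -0.13 and 0.22). Fibroblast markers summed to 134 and 141 CPM untreated and to 94.7 and 104 CPM with IL-4, and 2 of 8 fell. The 10 macrophage markers summed to 35124 and 39143 CPM untreated and to 27578 and 29766 CPM with IL-4. Of these markers 1 rose and 3 fell, where 9.66% of all genes were higher and 10.5% lower. Dendritic cell markers, 5 genes, summed to 0.962 and 1.18 CPM untreated and to 6.55 and 7.08 CPM with IL-4, and 2 of the 4 tested rose. Their part in the synthetase values was not tested.

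With LPS, 9 mitochondrial synthetase genes fell, Mars2, Nars2 and Vars2 by the most, and cytosolic genes were called in both directions. edgeR called 9 of 16 mitochondrial genes lower and 0 higher, and 6 of 20 cytosolic genes higher and 4 lower. Of all tested genes 52.1% were called, 22.8% higher and 29.3% lower, so calls were frequent throughout. The shares of cytosolic and of mitochondrial genes called were both near that of all genes, and the called mitochondrial genes were all lower. The median log2 fold change was -0.48 over the mitochondrial, 0.16 over the cytosolic and -0.10 over all tested genes. The level of all genes depends here on the scaling: with library totals alone the median of all genes shifts by -0.45, the cytosolic calls become 1 higher and 9 lower, the mitochondrial calls 0 higher and 13 lower, and all genes 1609 higher and 6407 lower against 2856 and 3663. Size factors of the RLE kind gave 6 higher and 3 lower cytosolic genes and 8 lower mitochondrial genes.

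Of the mitochondrial genes, Vars2, the valine enzyme (chr17:35655634-35667592, minus strand), had the smallest p. It held 13.6 and 12.9 CPM untreated and 6.47 and 6.60 CPM with LPS (log2 fold change -1.02, SE 0.11, adjusted p = 0.00063). Mars2 held 4.27 and 4.74 CPM untreated and 1.43 and 2.13 CPM with LPS, and fell by 1.34 (SE 0.22, adjusted p = 0.0034). Nars2 held 1.98 and 2.65 CPM with LPS against 4.77 and 5.77 CPM, and fell by 1.18 (SE 0.20, adjusted p = 0.0037). In each of these 3 genes the LPS level was at or below 0.495 of the untreated level, with no overlap. Cars2 followed at -0.94, Wars2 at -0.71, Pars2 at -0.67, Iars2 at -0.59, Hars2 at -0.56 and Tars2 at -0.35, for cysteine, tryptophan, proline, isoleucine, histidine and threonine (adjusted p from 0.0028 to 0.045). Lars2 and Yars2 were the only 2 with a positive value, 0.25 and 0.23 (adjusted p = 0.24 and 0.18). In 13 mitochondrial genes both LPS libraries were below both untreated ones, where 41.7% of all genes were, and in 1 they were above, where 32.8% were.

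Among the cytosolic genes that rose with LPS, Rars held 116 and 124 CPM against 61.9 and 71.2 CPM untreated (0.85, SE 0.11, adjusted p = 0.0015). Wars, whose product is known to be induced by interferon, held 75.2 and 62.3 CPM against 42.3 and 38.6 CPM (0.77, SE 0.13, adjusted p = 0.0037). Farsa held 72.7 and 62.3 CPM against 43.6 and 38.5 CPM (0.72, SE 0.13, adjusted p = 0.0045). All LPS libraries of these genes were above the untreated ones. Kars, Aars and Hars also rose, by 0.67, 0.66 and 0.35 (adjusted p = 0.0046, 0.0085 and 0.029), Hars turning to -0.11 with library totals alone. Farsb, the other subunit of the phenylalanine enzyme, had -0.12 (adjusted p = 0.36).

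Nars had the largest fall of the cytosolic genes, from 232 and 242 CPM untreated to 133 and 140 CPM with LPS (-0.80, SE 0.09, adjusted p = 0.00083). Qars fell from 154 and 140 CPM to 109 and 99.3 CPM (-0.50, SE 0.11, adjusted p = 0.0099). Iars fell from 77.3 and 76.8 CPM to 54.4 and 59.3 CPM (-0.44, SE 0.10, adjusted p = 0.011), and Mars by 0.40 (adjusted p = 0.046). The LPS libraries were below the untreated ones in each of these 4. Of Iars exon stretches of 50 bases, 8.39% also lie in the pseudogene Gm4849. Sars and Eprs did not pass, at -0.28 and 0.11. Called without any one of the 4 libraries were Rars, Wars, Farsa, Kars and Nars of the cytosolic and Mars2, Nars2, Vars2, Cars2 and Hars2 of the mitochondrial genes. Without LPS replicate 1, 6 cytosolic and 5 mitochondrial genes were called, and Aars, Hars, Iars, Mars, Iars2, Pars2, Tars2 and Wars2 were lost (adjusted p from 0.051 to 0.16). Without LPS replicate 2 the lost genes were Hars, Mars, Qars, Pars2, Tars2 and Wars2, without untreated replicate 1 Mars, Qars, Pars2 and Tars2, and without untreated replicate 2 Hars and Wars2 (adjusted p from 0.057 to 0.28).

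**Figure D4:**
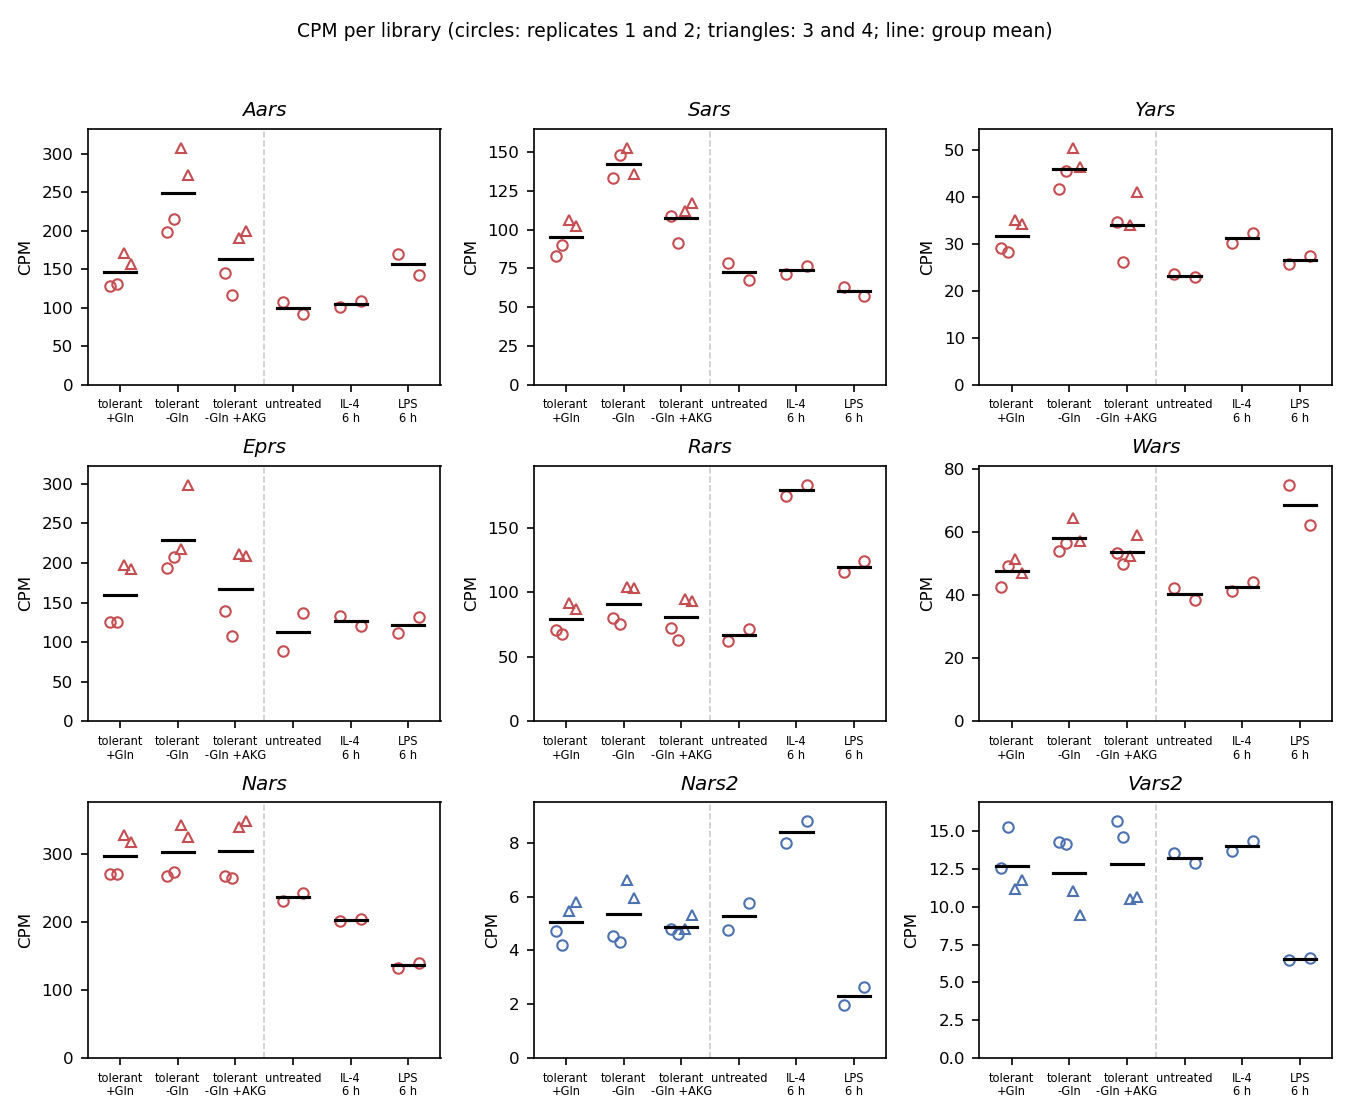
CPM (y axis, from 0) of 7 cytosolic genes in red and 2 mitochondrial genes in blue in each library of the 6 groups (x axis); lines are group means. Sars without glutamine, at 133 to 153 CPM, is above the other tolerant libraries, Rars peaks with IL-4 at 175 and 183 CPM, and Nars, Nars2 and Vars2 are lowest with LPS.

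In 14 of the 17 amino acid pairs the cytosolic gene had the higher log2 fold change with LPS, with a median difference of 0.78, and a scaling shared by all genes does not enter this difference. Tryptophan gave the widest gap, 1.48 between Wars and Wars2. Cysteine, phenylalanine through Farsa, alanine and valine followed at 1.09, 1.06, 1.04 and 0.97. For asparagine both genes fell, and Nars2 fell further than Nars by 0.39. The exceptions to the sign were leucine, tyrosine and serine, at -0.08 or nearer to 0. Hars and Hars2 lie head to head, with starts 197 bases apart and an overlap on opposite strands, and had 0.35 and -0.56.

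Of 4 further genes that modify what mitochondrial transfer RNA carries, 2 fell with LPS. Gatc fell by 1.21 and Gatb by 0.93 (adjusted p = 0.0030 and 0.0017), while Qrsl1 and the formyltransferase gene Mtfmt had -0.23 and -0.22 and did not pass. Ears2, which feeds the amidotransferase, had -0.26 (SE 0.13, adjusted p = 0.15). Of 8 mitochondrial translation factors 1 rose and 2 fell (Mtrf1 by 0.76 and Mrrf, named after its value was seen, by 0.56), with Gfm1, an elongation factor, the one that rose (0.34, adjusted p = 0.019). Tarsl2, a second cytosolic threonine gene, fell from 4.21 to 0.924 CPM (-2.18, SE 0.21, adjusted p = 0.00045), while Tars had 0.21. Aimp2, a scaffold gene of the complex, rose by 0.86 (adjusted p = 0.016), and Aimp1 and Eef1e1 had 0.04 and 0.27.

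Stress response genes gave 12 of 20 higher and 3 lower with LPS. Atf4 rose from 131 and 121 CPM to 246 and 225 CPM (0.90, SE 0.10, adjusted p = 0.00081). Ddit3 fell by 0.58 (adjusted p = 0.0047), and Trib3 had 0.10. Proliferation genes gave 6 of 8 lower, and their sums overlapped, at 75.5 and 108 CPM untreated and 62.3 and 86.6 CPM with LPS. Of 10 macrophage markers 5 rose and 1 fell, where 22.8% of all genes were higher and 29.3% lower. Neutrophil markers, 6 genes, summed to 2.84 and 3.19 CPM untreated and to 13.1 and 17.8 CPM with LPS, and 2 of the 3 tested rose. Dendritic cell markers summed to 5.10 and 5.64 CPM with LPS, against 0.962 and 1.18 CPM untreated, and 1 of the 4 tested rose. Their part in the synthetase values was not tested.

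IL-4 and LPS were compared directly, with the same LPS and IL-4 libraries as above. The mitochondrial set was higher with IL-4 in 11 of 16 genes and lower in 0, and the cytosolic set was higher in 5 (Iars, Nars, Qars, Rars and Vars) and lower in 3 (Aars, Farsa and Wars). Of all genes 53.1% were called, 29.7% higher and 23.4% lower. Nars2 differed most, at 8.02 and 8.81 CPM with IL-4 and 1.98 and 2.65 CPM with LPS (log2 fold change 1.86, SE 0.20, edgeR adjusted p = 0.00057). Wars2 at 1.18, Vars2 at 1.10 and Cars2 at 1.02 followed (adjusted p = 0.0044, 0.00041 and 0.0019). The mitochondrial genes that did not pass were Fars2, Lars2, Pars2, Rars2 and Yars2. Of the cytosolic genes Iars had the largest value, 0.77, from 95.5 and 98.4 CPM with IL-4 and 54.4 and 59.3 CPM with LPS (SE 0.10, adjusted p = 0.0011). Wars was lowest, at -0.69 (SE 0.13, adjusted p = 0.0054). Rars was higher with IL-4 than with LPS by 0.58 (SE 0.11, adjusted p = 0.0061), so its levels were ordered untreated, LPS and IL-4 with no overlap between libraries. With library totals alone the median of all genes moved by 0.48, Farsa turned to 0.045, the cytosolic calls became 13 higher and 0 lower, the mitochondrial calls 15 higher and 0 lower, and all genes 6565 higher and 1694 lower against 3714 and 2927. Without IL-4 replicate 1, IL-4 replicate 2 or LPS replicate 1 there were 4 cytosolic calls each and 7, 6 and 6 mitochondrial calls. Iars, Nars, Vars, Nars2, Wars2, Vars2, Cars2, Ears2 and Tars2 were called without any one of the 4 libraries, and the others were lost in at least 1 (adjusted p from 0.0504 to 0.22). Of the neighbouring genes, Gatc at 2.23, Tarsl2 at 2.07 and Gatb at 1.04 were higher with IL-4, and Aimp2 at -0.66 was lower (adjusted p from 0.00027 to 0.039).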

How the data were processed

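RNA of 18 libraries was measured with stranded TruSeq kits, per the labels. The deposited values are raw counts per gene; per the submitters' processing notes, STAR and HTSeq were used with the mm10 build, and their versions and strand setting were not given in the sources used here. Members and gene lists were chosen with earlier results of these data known. Every gene of each table was fitted with all 3 groups in edgeR 4.0.16 (R 4.3.3): filterByExpr, TMM, robust quasi-likelihood F tests, Benjamini-Hochberg adjustment over all tested genes and a threshold of 0.05. Residual degrees of freedom were 9 in the tolerant and 3 in the stimulation set, so small changes can be missed, above all in the second. SE is that of the log2 fold change, and log2 CPM uses a prior count of 2.

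In the tolerant set all 12 correlations of same-numbered libraries' deviations from group means were 0.50 to 0.82, so the numbers were used as a block beside the main fit; the labels do not say what they mark, and libraries of the neighbouring number (1 with 2, 3 with 4) correlated at 0.47 to 0.84. Alternatives were RLE size factors, library totals alone, no filter, DESeq2 1.42.0, limma-voom 3.58.1, the block, replicates 1 and 2 or 3 and 4 as a factor or alone, 2 groups alone and each library left out; fits without robust dispersion and a crossed block were added after seeing the data. The scripts were tested on simulated data. Exon lengths, overlaps and shared 50-base stretches come from GENCODE vM21 (GRCm38): 8 members overlap a gene on the same strand, 17 one on the other strand, and 5 share stretches, 2 of them over 5%. Members described in full were those called in either fit and the 2 of each set with the largest change per comparison; of other genes, those of the scaffold, amidotransferase and further synthetase lists, Atf4, Asns, Trib3, Ddit3 and the 2 with the smallest p of each other list could be named. Figures were drawn with matplotlib 3.10.9 (Python 3.11.15). One further gene and 1 promoter window are not reported here.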

Additional observations from a re-analysis of the deposited data

Results flagged for a closer look

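In 108 groups of 4 tolerant libraries, 1 for each member and group, 3 held a library far from the other 3 by Dixon's criterion. For independent libraries of the same spread, chance flags about 1 in 20. In every tolerant group, libraries of neighbouring numbers lay together and apart from the rest, so that rate does not apply here. The share flagged therefore cannot show whether such libraries were few or many. All 3 flagged cases were cytosolic genes in the group without glutamine, a coincidence that was not tested. Dars, the aspartate enzyme, held 102 CPM in replicate 4 and 69.4 to 74.1 CPM in the others. Farsa, a subunit of the phenylalanine enzyme, held 43.2 CPM in replicate 3 and 38.0 to 38.7 CPM in the others. Kars, the lysine enzyme, held 83.5 CPM in replicate 3 and 67.6 to 69.99 CPM in the others. These 3 genes were not called on glutamine withdrawal in either fit.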

How the results depend on the processing

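Glutamine withdrawal gave 3 cytosolic calls, and 2 with RLE factors, library totals alone, no filter, a filter of 1 CPM, limma-voom or the 2 groups alone. DESeq2 gave 6 and the replicate block 11. A factor for replicates 1 and 2 against 3 and 4, here the grouping factor, gave 12. That grouping was seen in the data and is not given by the labels. Replicates 1 and 2 alone gave 10, and fits with a library left out gave 1 to 3. Replicates 3 and 4 were also fitted alone, and that count is not given here. Sars kept its call in all 20 alternative fits. The 0 mitochondrial calls on glutamine withdrawal became 1 with the block, 2 with the grouping factor and 1 in replicates 1 and 2 alone. AKG against no AKG gave 0 cytosolic calls, and 1 with library totals alone, 4 with DESeq2, 9 with the block and 10 with the grouping factor. Replicates 1 and 2 alone gave 9 cytosolic calls and 3 and 4 alone gave 1. Mitochondrial calls went from 0 to 1 with DESeq2, 3 with the block, 3 with the grouping factor and 4 in replicates 1 and 2 alone. AKG against glutamine gave 1 mitochondrial call with the block, with the grouping factor and in replicates 1 and 2 alone, and 1 cytosolic call in the last. Calls over all genes also rose with the block, from 4.7% to 21.7% on glutamine withdrawal. For AKG against no AKG they rose from 1.49% to 15.3%. The share of all genes was not taken for DESeq2, the grouping factor or sets of replicates alone. Member counts in those fits are therefore not read as a stronger synthetase result. The cytosolic minus mitochondrial difference without a library ran from 0.15 to 0.26 on glutamine withdrawal, from -0.22 to -0.063 for AKG against no AKG and from -0.014 to 0.14 for AKG against glutamine.

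The stimulation replicates share only a number: deviations of untreated and LPS libraries of 1 number correlated at 0.50, and those with IL-4 at -0.66 and -0.37. The replicate block lost Yars and gained Nars2 for IL-4, lost Mars and Tars2 for LPS and lost Qars for IL-4 against LPS. With IL-4 the 0 mitochondrial calls became 1 with RLE factors, library totals alone, no filter, DESeq2, limma-voom, the block or 2 groups alone, and 4 with the crossed block (added after seeing the data); the 3 cytosolic calls became 5 with DESeq2 and 7 with the crossed block, and 1 to 4 (mitochondrial 0 to 3) with a library left out. The cytosolic minus mitochondrial difference with IL-4, 0.07, was 0.12 over amino acid pairs and 0.035 to 0.10 with a library left out. With LPS it was 0.63, and 0.34 as a ratio of summed CPM; calls ran from 6 to 12 cytosolic and 5 to 10 mitochondrial with a library left out, and Hars turned to -0.11 with library totals alone. For IL-4 against LPS the 8 cytosolic calls (5 higher, 3 lower) became 13 with library totals alone (all higher) and 13 with the crossed block, and 4 to 7 (mitochondrial 6 to 9) with a library left out. Its difference of -0.56 became -0.27 from summed CPM and ran from -0.65 to -0.47 with a library left out, and Farsa turned to 0.045 with library totals alone. DESeq2 and limma-voom gave no value for these differences. The share of all genes called was not taken for DESeq2, limma-voom or the crossed block. Leaving out a stimulation library leaves 1 in its group, which is assumed to vary like the others. Causes of these shifts were not tested, except that left-out libraries leave fewer samples.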
